A study of Mus musculus with 12 samples.

Results

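The 10 genes described here are read as marks of basophils, mast cells and eosinophils: Fcer1a, Ms4a2, Il1rl1, Cd200r3, Il5ra and Ccr3 encode surface receptors or their subunits, Hdc encodes an enzyme, and Prg2, Prg3 and Epx encode eosinophil granule proteins. They were taken by symbol, and 10 of 10 were found among the 56748 Ensembl gene identifiers counted, of which 34929 had at least 1 count. RNA-seq was made from Lin-Sca+Kit+ (LSK) bone marrow (BM) cells, a sort that holds the haemopoietic stem cells and early multipotent progenitors and is meant to be free of mature lineage cells. Donor BM came from SCLtTA/BCR-ABL double transgenic (DTG) mice carrying the CD45.2 allele, in which a tetracycline-controlled transactivator (tTA) under SCL regulatory elements, active in stem and progenitor cells, switches on a human BCR-ABL1 transgene once tetracycline (TET) is withdrawn. The donor cells were a pool from several DTG animals of both sexes, and were given to irradiated CD45.1 B6.SJL recipients of 8 to 12 weeks, which received 2 doses of 4.25 Gy 3 hours apart and TET for the first 2 weeks. In the CTRL group (n = 6, labelled normal, TET on) TET was continued, and in the CML 2wk group (n = 6, labelled CML, TET off) it was withdrawn for 2 weeks so that BCR::ABL1 was expressed; all 12 libraries therefore carry both transgenes, and the sort on CD45.2 was set to leave out cells of the host. The question is how the genes of these granulocyte and mast cell lineages differ between LSK cells with and without BCR::ABL1 expression.

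Mast cells and basophils bind IgE through the high-affinity receptor FcεRI, which is built of an α chain that holds IgE (Fcer1a), a β chain that amplifies the signal (Ms4a2) and γ chains shared with other receptors (Fcer1g). When antigen crosslinks the bound IgE, these cells release histamine, made by histidine decarboxylase (Hdc), together with proteases and cytokines, and they also answer IL-33 through its receptor ST2 (Il1rl1). Eosinophils instead grow under IL-5 (receptor chain Il5ra), are drawn by eotaxins (receptor Ccr3) and store major basic protein (Prg2), its homologue (Prg3) and eosinophil peroxidase (Epx) in their granules.

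The libraries held 22804754 to 41832868 counts in CTRL and 16150817 to 25070105 in CML 2wk. Values below are CPM, that is counts as parts of the library total, scaled by edgeR's TMM factors so that libraries can be compared, and fold changes are CML 2wk over CTRL from edgeR's quasi-likelihood test, with p-values adjusted by Benjamini-Hochberg over all 18438 genes that passed its filter on low counts. At an adjusted p of 0.05, 30.6% of these genes were higher in CML 2wk and 29.0% were lower, so a call on its own is common here and the sizes matter more; the median log2 fold change of all tested genes was 0.07. The labels do not say that each library is 1 animal, so the p-values measure the spread between these samples. The labels give male for every CTRL library and female for every CML 2wk library, so sex and BCR::ABL1 expression cannot be told apart in any comparison here. The deposited file names carry library numbers that run in 1 series for CTRL 1 to 5 and in another for CML 2wk 1 to 5, and only replicate 6 of each group falls outside them, so that library number and group also cannot be told apart for most libraries. CML 2wk replicate 2 stood apart: the summed CPM of 9 stromal and endothelial markers was 2868 there, against 204.9 to 261.8 in CTRL, 590.4 in CML 2wk replicate 4 and 176.9 to 213.9 in the other 4 CML 2wk libraries. Without CML 2wk replicates 2 and 4 the log2 fold changes of Fcer1a, Il1rl1, Cd200r3 and Hdc were 3.78, 2.52, 3.79 and 0.83, all past the threshold.

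Of the 9 members tested, 5 were higher in CML 2wk (Fcer1a, Cd200r3, Il1rl1, Hdc and Il5ra), against the 30.6% of all tested genes, and 3 were lower (Prg2, Prg3 and Epx), against the 29.0%. Ms4a2 did not pass the test, and Ccr3 lay under the filter. The genes of mast cells and basophils thus moved up by 2.96-fold to 22.02-fold in 4 cases, whereas those for the eosinophil granule moved down by 2.45-fold to 3.56-fold. The 12 values did not overlap between groups for 5 of the 10 members (Fcer1a, Il1rl1, Cd200r3, Hdc and Prg2), beside 37.6% of all tested genes. The median log2 fold change over the 9 tested members was 0.66, a value between opposite movements, beside 0.07 over all tested genes. In bulk RNA, a change in the number of cells of a type and a change in the RNA per cell cannot be told apart.

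**Figure D1:**
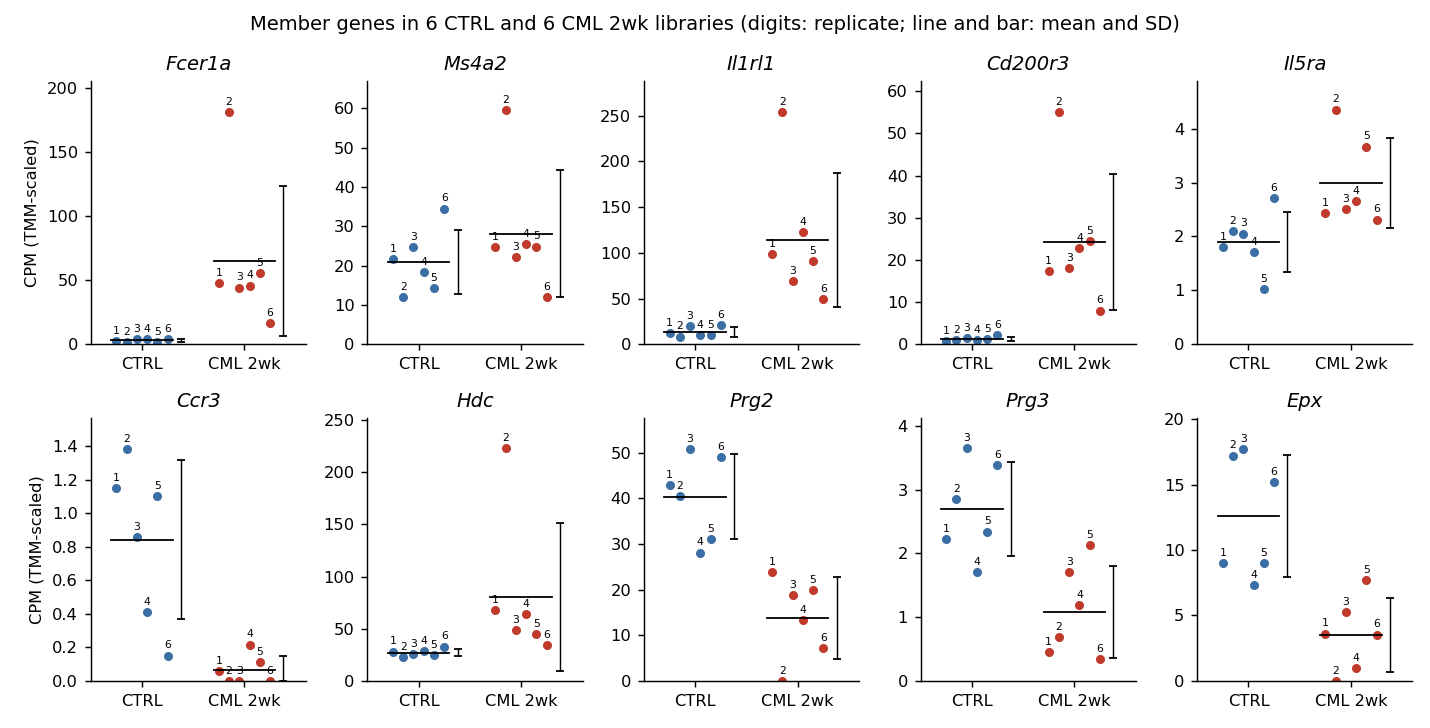
TMM-scaled CPM of each member gene (y axis, linear from 0) in the 6 CTRL (blue) and 6 CML 2wk (red) libraries, with the replicate number above each point, a line at the mean and a bar of 1 SD (stopped at 0 for Ccr3). CML 2wk replicate 2 is the highest of the 6 CML 2wk points for 6 members and is at 0 for Prg2 and Epx, and CML 2wk replicate 6 is the lowest of the 6 CML 2wk points for 7 members, Ms4a2 and Hdc among them.

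Promoter sequence is shown for 4 members, because the members moved in opposite directions: the α chain of FcεRI, which rose, the β chain, which did not pass the test, Cd200r3, which rose, and Prg3 of the granule proteins, which fell. Each sequence is the 250 bases before the RefSeq gene start (build GRCm38.p6), written 5′ to 3′ on the gene's strand. Capitals mark GATAA, the core that GATA factors bind, or its reverse complement TTATC. Fcer1a lies at chr1:173227230-173227479 (minus strand), Ms4a2 at chr19:11623720-11623969 (minus strand), Cd200r3 at chr16:44943428-44943677 (plus strand) and Prg3 at chr2:84987965-84988214 (plus strand).
Fcer1a: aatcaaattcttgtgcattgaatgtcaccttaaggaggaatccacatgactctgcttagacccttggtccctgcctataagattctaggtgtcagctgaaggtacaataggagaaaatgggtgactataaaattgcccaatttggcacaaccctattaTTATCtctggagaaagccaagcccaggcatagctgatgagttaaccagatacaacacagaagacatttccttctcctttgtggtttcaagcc
Ms4a2: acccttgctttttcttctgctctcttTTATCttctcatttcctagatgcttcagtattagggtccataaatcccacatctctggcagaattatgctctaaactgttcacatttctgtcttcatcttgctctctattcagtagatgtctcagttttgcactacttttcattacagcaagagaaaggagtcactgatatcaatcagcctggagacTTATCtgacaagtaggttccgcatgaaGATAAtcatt
Cd200r3: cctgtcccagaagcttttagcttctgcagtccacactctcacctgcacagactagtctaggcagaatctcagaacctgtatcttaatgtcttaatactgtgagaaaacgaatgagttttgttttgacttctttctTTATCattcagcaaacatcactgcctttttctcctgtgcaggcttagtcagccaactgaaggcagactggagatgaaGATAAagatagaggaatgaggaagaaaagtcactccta
Prg3: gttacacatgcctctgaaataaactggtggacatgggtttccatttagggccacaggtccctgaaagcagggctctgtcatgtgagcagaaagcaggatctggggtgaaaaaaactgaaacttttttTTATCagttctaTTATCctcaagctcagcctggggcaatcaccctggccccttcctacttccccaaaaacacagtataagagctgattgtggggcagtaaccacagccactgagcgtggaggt

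Over the whole RefSeq windows of 300 bases (250 before and 50 after the start; 10 windows of 9 members, 2 of them for Il1rl1), GATAA was found on either strand in 8, against 25.4% of all 32851 promoter windows. Hdc and Epx held none. The motif GAGGAA, a core bound by ETS factors such as PU.1, was in 5 of the 10 windows (28.3% of all), TTGCNNAA, a C/EBP-like sequence, was in 3 (10.8%), and the STAT-like TTCNNNGAA was in 0 (8.30%). Among the sequences shown, Ms4a2 held 3 copies of GATAA, Cd200r3 and Prg3 held 2 each and Fcer1a held 1. These are matches of letters and say nothing of binding, and any relation to the direction of change was not tested.

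Fcer1a, the α chain of FcεRI and the part that holds IgE, was low in CTRL, with 2.13, 1.58, 3.99, 4.12, 1.68 and 4.07 CPM in replicates 1 to 6. In CML 2wk it was 47.5, 181.0, 44.1, 45.7, 55.6 and 16.4 CPM. Every CML 2wk library exceeded every CTRL library, and 4 of the 6 lay within 44.1 to 55.6 CPM, with replicate 2 far above and replicate 6 far below them. The log2 fold change was 4.46 ± 0.51 (SE), or 22.02-fold, with an edgeR adjusted p of 3.9e-06. Without CML 2wk replicate 2 the log2 fold change was 3.81 (adjusted p = 1.5e-07).

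Ms4a2, the β chain of the same receptor, was already present in CTRL at 21.7, 12.0, 24.7, 18.3, 14.3 and 34.5 CPM. In CML 2wk it was 24.7, 59.6, 22.1, 25.5, 24.8 and 12.1 CPM. Apart from replicate 2, every CML 2wk value lay within the CTRL range, and the difference did not pass the test (log2 fold change 0.43 ± 0.32, adjusted p = 0.26). The estimate turned on a few libraries: it was 0.79 (adjusted p = 0.029) without replicate 6 of both groups and -0.0087 (adjusted p = 0.98) without CML 2wk replicates 2 and 4. Fcer1g, the γ chain, was 22.003 ± 2.247 CPM (SD, n = 6) in CTRL and 24.97 ± 8.99 in CML 2wk, and did not pass the test either (log2 fold change 0.18 ± 0.19, adjusted p = 0.43).

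Per kb of merged exon, the ratio of Fcer1a to Ms4a2 was 0.276 to 0.636 in the 6 CTRL libraries and 3.84 to 8.57 in the 6 CML 2wk libraries. The α chain transcript was thus below the β chain in all 6 CTRL libraries and above it in all 6 CML 2wk libraries, replicates 2 and 6 included. The ratio of Ms4a2 to Fcer1g overlapped between the groups, at 0.178 to 0.556 and 0.101 to 0.546. These ratios were chosen after the values were seen and were not tested.

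**Figure D2:**
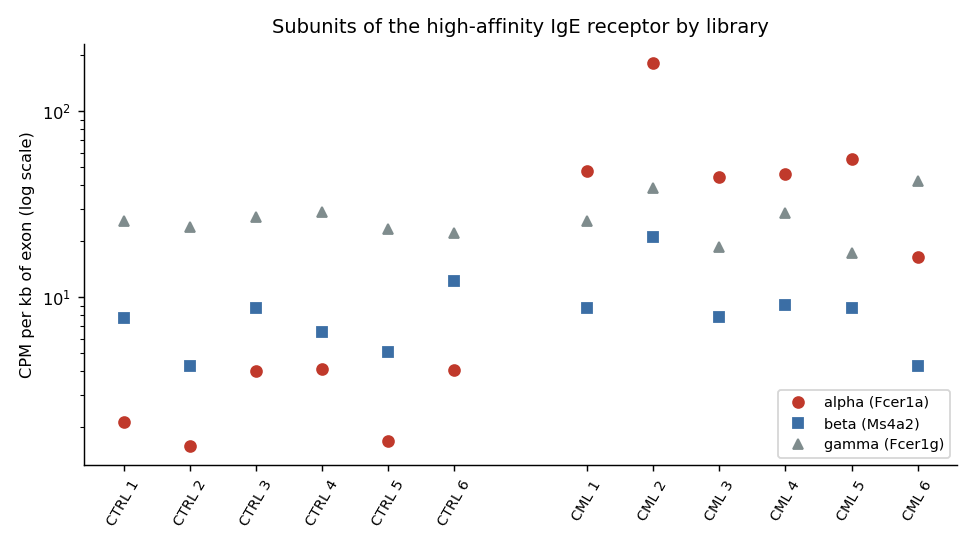
CPM per kb of merged exon (y axis, log scale) of the α (Fcer1a), β (Ms4a2) and γ (Fcer1g) chains of FcεRI in each library (x axis, CTRL 1 to 6 and CML 2wk 1 to 6). The α chain sits under the β chain in the 6 CTRL libraries, at 1.59 to 4.13 CPM per kb, and over it in the 6 CML 2wk libraries, at 16.5 to 181.4.

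Il1rl1, which encodes the IL-33 receptor ST2, was 11.8, 8.43, 19.7, 9.70, 9.55 and 21.2 CPM in CTRL. In CML 2wk it was 98.8, 254.4, 68.8, 122.5, 91.4 and 49.1 CPM. The groups did not overlap, and the lowest CML 2wk value, in replicate 6, was above the highest CTRL value, also in replicate 6. The log2 fold change was 3.09 ± 0.38 (8.54-fold, adjusted p = 6.5e-06), and 2.68 without CML 2wk replicate 2.

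Cd200r3, an activating member of the CD200 receptor family found on mouse basophils and mast cells, was the lowest member per length in CTRL, at 0.782, 0.910, 1.42, 0.892, 1.24 and 2.15 CPM. In CML 2wk it was 17.3, 55.1, 18.04, 22.8, 24.4 and 7.98 CPM. The groups did not overlap, and the pattern across libraries was that of Fcer1a, with replicate 2 highest and replicate 6 lowest. The log2 fold change was 4.32 ± 0.42 (19.95-fold, adjusted p = 8.4e-07). Cd200r4, a related receptor gene, also rose (log2 fold change 2.85 ± 0.30, adjusted p = 1.5e-06), as did Cd200r1 with a smaller value (0.55 ± 0.10, adjusted p = 0.00028).

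Il5ra, the specific chain of the IL-5 receptor, was low in both groups, at 1.81, 2.10, 2.05, 1.71, 1.02 and 2.71 CPM in CTRL and 2.43, 4.36, 2.51, 2.65, 3.67 and 2.31 CPM in CML 2wk. CTRL replicate 6 lay above 4 of the 6 CML 2wk libraries, so the groups overlapped. The log2 fold change of 0.66 ± 0.24 passed the threshold (adjusted p = 0.027) but did not when any 1 of 5 libraries was left out. The adjusted p was 0.055 without CTRL replicate 1, 0.058 without CTRL replicate 4, 0.057 without CTRL replicate 5, 0.059 without CML 2wk replicate 2 and 0.059 without CML 2wk replicate 5, with log2 fold changes of 0.51 to 0.64.

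Ccr3, the eotaxin receptor, had 151 counts over the 6 CTRL libraries and 8 over the 6 CML 2wk libraries, and lay under the filter. It was 1.15, 1.39, 0.858, 0.41, 1.11 and 0.151 CPM in CTRL and 0.057, 0, 0, 0.217, 0.112 and 0 CPM in CML 2wk. CTRL replicate 6, with 4 counts, was below CML 2wk replicate 4, also with 4 counts, and this pair alone made the groups overlap. Mean CPM was 0.843 ± 0.474 (SD, n = 6) in CTRL and 0.0642 ± 0.0871 in CML 2wk, a difference of -0.779 CPM with a 2-sided exact permutation p of 0.0043, where 0.0022 is the smallest p that 6 against 6 allows. Without the filter, edgeR gave a log2 fold change of -3.67 (adjusted p = 0.00084), and DESeq2 gave -3.72 (adjusted p = 1.3e-05).

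Hdc, the enzyme that makes histamine, was the most even member in CTRL, at 28.1, 23.1, 25.9, 28.6, 24.6 and 32.8 CPM, with a coefficient of variation of 12.7%. In CML 2wk it was 67.8, 222.9, 48.4, 64.2, 44.9 and 34.7 CPM. The groups did not overlap, but the lowest CML 2wk library (replicate 6) was only just above the highest CTRL library (replicate 6). The log2 fold change was 1.57 ± 0.37 (2.96-fold, adjusted p = 0.0022). Without CML 2wk replicate 2 it was 0.92 (adjusted p = 7.2e-05).

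Prg2, which encodes major basic protein, was the most abundant member per length in every CTRL library, at 42.9, 40.5, 50.9, 28.1, 31.1 and 49.0 CPM. In CML 2wk it was 23.9, 0, 18.8, 13.3, 19.95 and 7.14 CPM. The groups did not overlap, and the log2 fold change was -1.55 ± 0.56 (2.93-fold lower, adjusted p = 0.026). CML 2wk replicate 2 held 0 Prg2 counts, which allows up to 3 counts or 0.128 CPM, whereas the other 5 CML 2wk libraries held 145 to 533 counts. Of the 11684 genes with at least 50 counts in each of the other 11 libraries, Prg2 and Jchain, the immunoglobulin joining chain gene of plasma cells, were the 2 at 0 in this library, and no other library had such a gene. Without this library the log2 fold change was -1.29 (adjusted p = 0.00031). It was -1.57 with an adjusted p of 0.12 in DESeq2, and -1.48 with an adjusted p of 0.052 without CTRL replicate 3.

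Prg3, the homologue of Prg2 and its neighbour on the chromosome, was less abundant, at 2.22, 2.85, 3.66, 1.71, 2.34 and 3.39 CPM in CTRL and 0.453, 0.683, 1.71, 1.19, 2.13 and 0.345 CPM in CML 2wk. The groups overlapped through CML 2wk replicate 5 alone, as CML 2wk replicate 3 lay just under CTRL replicate 4 (1.7118 against 1.7124 CPM). The fall of Prg3 passed the test (log2 fold change -1.30 ± 0.38, adjusted p = 0.0093). Epx, the peroxidase of eosinophil granules, was 9.02, 17.2, 17.7, 7.31, 9.01 and 15.2 CPM in CTRL and 3.62, 0, 5.26, 0.975, 7.67 and 3.54 CPM in CML 2wk. CML 2wk replicate 5 alone reached into the CTRL range, and the log2 fold change was -1.83 ± 0.60 (adjusted p = 0.017). In CML 2wk replicate 2, where Prg2 and Epx had no counts, Prg3 still had 16 counts.

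**Figure D3:**
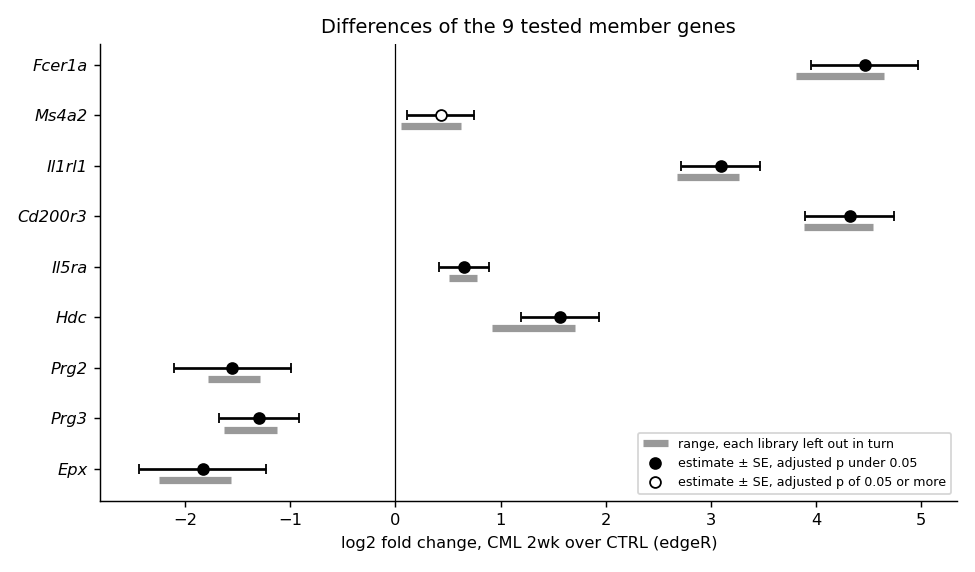
Log2 fold change of CML 2wk over CTRL (x axis) for the 9 tested members, with the SE as bars, filled points for an adjusted p under 0.05, and a grey line for the range of estimates when each of the 12 libraries was left out in turn. Fcer1a, Cd200r3 and Il1rl1 lie between 3.09 and 4.46, Ms4a2 is the open point at 0.43, and Prg3, Prg2 and Epx lie between -1.83 and -1.30.

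Replicate 6 was the 1 pair outside the separate runs of library numbers, and its values are 1 library against 1, with no replicate check. Within it, Fcer1a was 4.04-fold higher in CML 2wk, Cd200r3 3.72-fold and Il1rl1 2.31-fold, whereas Hdc was nearly level (32.8 and 34.7 CPM). Over replicates 1 to 5 the same ratios of mean CPM were 27.7, 26.3, 10.7 and 3.44. Ms4a2 was 2.86-fold lower in CML 2wk replicate 6 than in CTRL replicate 6, Prg2 6.87-fold lower, Prg3 9.83-fold lower and Epx 4.28-fold lower. Of the members called over all libraries, Il5ra (2.71 and 2.31 CPM) alone did not have its direction in this pair.

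The make-up of the members separated the groups where their sum did not. In each library, Fcer1a, Ms4a2, Il1rl1, Cd200r3 and Hdc together made 41.8% to 61.1% of the summed CPM of the 10 members in CTRL and 87.7% to 99.4% in CML 2wk. Prg2, Prg3 and Epx made 36.8% to 55.0% in CTRL and 0.0878% to 11.2% in CML 2wk. The sum itself overlapped between groups, at 95.9 to 165.2 CPM in CTRL and 133.6 to 778.0 in CML 2wk, the lowest CML 2wk value being replicate 6. In that library 90.0% of the sum still came from the mast cell and basophil members. These shares restate the same values as the fold changes above, leave Il5ra and Ccr3 out of either set, and were not tested.

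**Figure D4:**
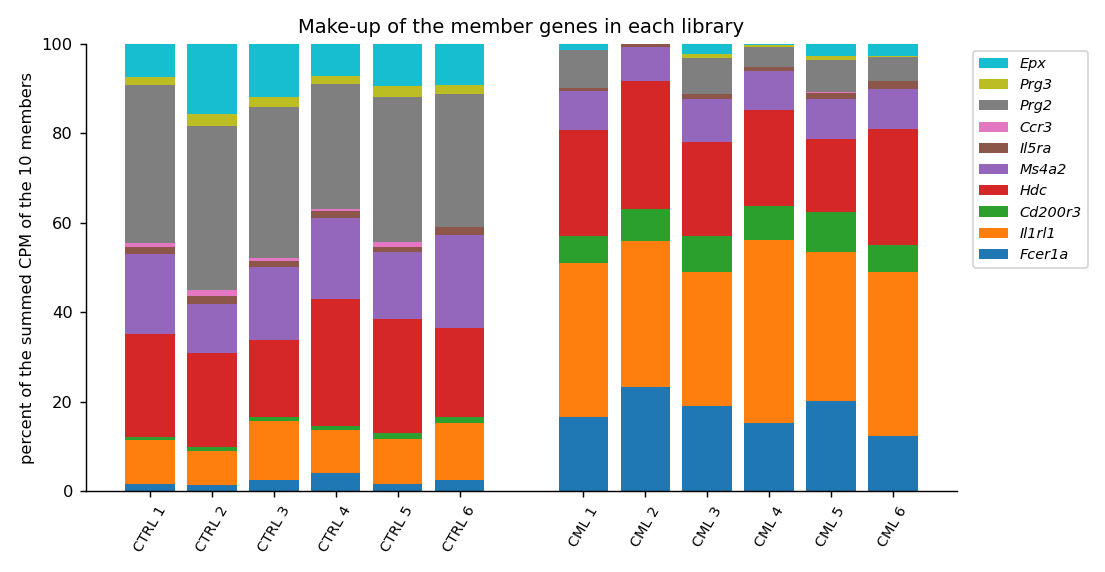
Share of each member in the summed CPM of the 10 members (y axis, percent, stacked to 100) in each library (x axis). Prg2, Prg3 and Epx, at the top, fill 36.8% to 55.0% of each CTRL bar and at most 11.2% of each CML 2wk bar.

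Per kb of merged exon, the order of the medians in CTRL was Prg2 (49.7 CPM per kb), Ms4a2 (7.11), Epx (4.42), Hdc (4.23), Fcer1a (3.07), Prg3 (2.73), Il1rl1 (1.56), Il5ra (0.54), Ccr3 (0.30) and Cd200r3 (0.179). Prg2 stood clear of Ms4a2, and Il1rl1 of Il5ra, in their ranges, while all other neighbours in this order overlapped. In CML 2wk the order was Fcer1a (46.7), Prg2 (19.2), Il1rl1 (13.8), Hdc (8.81), Ms4a2 (8.80), Cd200r3 (3.42), Epx (1.31), Prg3 (0.988), Il5ra (0.722) and Ccr3 (0.00864), where Il5ra stood clear of Ccr3 and all other neighbours overlapped. Cd200r3 moved from the tenth place to the sixth, and Fcer1a from the fifth to the first.

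Within a group, the mast cell and basophil members varied together. Over the 6 CML 2wk libraries, Pearson's r of log2 CPM between the 5 mast cell and basophil members was 0.87 to 0.99 in the 10 pairs, and 0.64 to 0.98 over the 5 libraries without replicate 2. Over the 6 CTRL libraries it was 0.48 to 0.92. Prg2 and Epx had r of 0.80 in CTRL and 0.93 in CML 2wk, the latter falling to 0.33 without replicate 2, where both were at 0. Prg2 and Prg3 had r of 0.87 in CTRL and 0.27 in CML 2wk. Between Fcer1a and Prg2, r was 0.22 in CTRL and -0.71 in CML 2wk, but 0.90 without replicate 2; between Hdc and Epx it was -0.92 in CML 2wk and -0.48 without replicate 2. These are descriptions over few libraries that share depth and a sort.

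After the group means were taken off, the tested genes most like Il1rl1 over the 12 libraries were Cpa3, which encodes mast cell carboxypeptidase A (r = 0.97), Ms4a2 (r = 0.95) and Slc45a3 (r = 0.95), and r stayed at 0.91 to 0.95 over the 11 libraries without CML 2wk replicate 2. Ms4a2 thus followed Il1rl1 from library to library although its group means did not differ past the test. Cpa3 rose (log2 fold change 2.57 ± 0.36, adjusted p = 2.7e-05). For Hdc the most alike were Slc7a8, an amino acid transporter (r = 0.97), Gm11992 (r = 0.97) and Tnfrsf23 (r = 0.97), at 0.78 to 0.92 without that library. For Prg2 they were Rps19-ps3, Gm43009 and Gm24252 (r = 0.98 to 0.99), at 0.66 to 0.83 without it.

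Lists of other genes of these cells were counted in the same way. Each count is to be read beside the 30.6% of all tested genes called higher and the 29.0% called lower. Of 19 tested granule and mediator genes of mast cells and basophils, 14 rose and 2 fell, with a median log2 fold change of 2.20 beside 0.07 over all tested genes; without CML 2wk replicate 2, 12 rose and 3 fell with a median of 1.15. Tph1, Tpsab1, Tpsg1 and Mcpt4 had CTRL medians under the filter's level of 0.416 CPM and were tested only through CML 2wk, where they could count only as higher. Of the other 15 genes 10 rose and 2 fell, with a median of 1.23. The tryptase gene Tpsb2, 1 of these 10, reached that level by its CTRL median only. It was at 0.0244, 0 and 0.169 CPM in CTRL replicates 1, 2 and 4, so it too passed the filter only through CML 2wk. Tph1, the enzyme that starts serotonin synthesis in mast cells, was at most 0.113 CPM in CTRL and 8.57 to 113.2 CPM in CML 2wk. Tpsab1, a mast cell tryptase, was at most 0.226 CPM in CTRL and 1.87 to 36.7 CPM in CML 2wk. Srgn, the proteoglycan that packs granule contents, was the most abundant of the list and rose 2.34-fold (adjusted p = 4.6e-06), whereas Slc18a2, which loads histamine into vesicles, fell by 0.45 on the log2 scale (adjusted p = 0.0024), as did the prostaglandin synthase gene Ptgs1 by 0.61 (adjusted p = 0.00041).

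Of 18 tested FcεRI partner and proximal signalling genes, 2 rose, 11 fell and 5 did not pass the test, with a median of -0.47. Milr1, an inhibitory receptor of mast cells also called Allergin-1, rose 2.68-fold (adjusted p = 7.4e-07) and the adaptor Lat2 rose 1.40-fold (adjusted p = 0.00012). Rasgrp4, a Ras activator first known from mast cells, fell by 1.55 on the log2 scale (adjusted p = 0.00014), Plcg1 fell by 0.94 (adjusted p = 9.2e-06), and Kit, the stem cell factor receptor and 1 of the markers of the sort, fell by 0.86 (adjusted p = 4.7e-06).

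Of 17 other surface genes of basophils and mast cells, 10 rose and 3 fell (median 0.35), and without Mrgprb2 and Il9r (under the filter's level in CTRL) and Ptgdr2 (under it in CML 2wk) 8 of 14 rose and 3 fell (median 0.33). Mrgprb2, the mast cell receptor for basic secretagogues, was at most 0.527 CPM in CTRL and 0.856 to 7.09 CPM in CML 2wk, and C3ar1, the receptor for complement C3a, rose 11.4-fold (adjusted p = 0.00027), or 5.93-fold (adjusted p = 6.4e-05) without CML 2wk replicate 2. C3ar1, 1 of the 8 that rose, was under the filter's level in CTRL replicates 1 and 6, at 0.367 and 0.377 CPM. It too passed the filter only through CML 2wk, and could count only as higher. Il18rap, the most abundant of these surface genes, rose 1.20-fold (adjusted p = 0.019), whereas its partner Il18r1 fell by 0.74 (adjusted p = 0.0017) and the integrin Itgb7 fell by 0.59 (adjusted p = 1.0e-04).

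Of 8 tested genes of the eosinophil list, 3 rose and 1 fell (median 0.23), beside 30.6% and 29.0% of all tested genes. The list thus did not fall as a whole as the 3 granule proteins did, and its rises were about as common as among all genes. Ffar2, a receptor for short-chain fatty acids and the most abundant, rose 2.27-fold (adjusted p = 4.5e-05), and Il13ra1 rose 2.74-fold (adjusted p = 0.016), or 1.73-fold (adjusted p = 0.048) without CML 2wk replicate 2. Siglecf, a defining surface marker of eosinophils, was 14.1 ± 2.53 CPM (SD, n = 6) in CTRL and 17.1 ± 3.46 in CML 2wk and did not pass the test (1.21-fold, adjusted p = 0.12), but did without CML 2wk replicate 5 (1.28-fold, adjusted p = 0.049). The 1 gene that fell, Ear6, an eosinophil-associated ribonuclease gene, was named after its values were seen; it was under the filter's level in CML 2wk and was tested only through CTRL, and its log2 fold change was -2.11 ± 0.61 (adjusted p = 0.0081), from 0.912 CPM in CTRL to 0.213 CPM in CML 2wk.

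Among 11 cytokine receptor chains, 2 rose and 5 fell (median -0.20). The 2 that rose were Csf2rb, the β common chain that Il5ra signals through (2.12-fold, adjusted p = 6.7e-06), and its mouse IL-3 counterpart Csf2rb2 (3.94-fold, adjusted p = 8.2e-05), while the erythropoietin receptor Epor fell by 1.34 (adjusted p = 8.8e-05). Among 9 tested cytokine and chemokine genes, 3 rose and 1 fell (median 0.19), beside 30.6% and 29.0% of all tested genes, so rises were about as common as among all genes. Il6 rose 9.83-fold, Ccl6 5.01-fold and Ccl9 4.24-fold (adjusted p = 4.8e-05, 6.4e-05 and 1.7e-07), and Il18 fell by 1.20 (adjusted p = 0.00014). Il6, 1 of the 3 that rose, was under the filter's level in CTRL replicates 4 and 5, at 0.265 and 0.177 CPM. It passed the filter only through CML 2wk, and could count only as higher.

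Of 21 lineage transcription factor genes, 6 rose and 11 fell (median -0.20). Id1 rose 7.73-fold (adjusted p = 4.8e-07) and Bhlhe40, a factor of basophil and mast cell cytokine expression, rose 4.24-fold (adjusted p = 0.00024), or 2.69-fold (adjusted p = 1.5e-07) without CML 2wk replicate 2. Gata1 fell by 1.82 (adjusted p = 1.5e-06), its cofactor Zfpm1 by 1.78 (adjusted p = 9.7e-08), and the most abundant factor, Ikzf1, by 0.49 (adjusted p = 1.5e-05). Gata2, a factor that basophils and mast cells need, was named after its values were seen and also fell, by 1.10 (adjusted p = 1.6e-05).

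**Figure D5:**
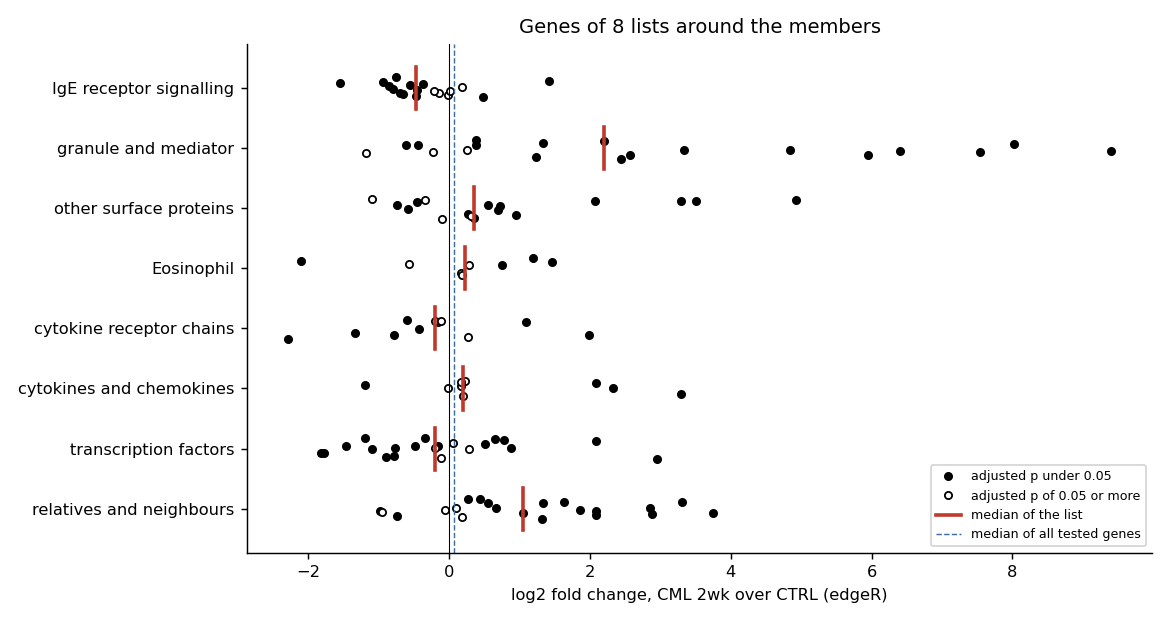
Log2 fold change of CML 2wk over CTRL (x axis) for each tested gene of 8 lists (rows), filled where the adjusted p was under 0.05, with a red bar at the list's median and a dashed line at the median of all tested genes (0.07). The granule and mediator list has its median at 2.20 and IgE receptor signalling at -0.47.

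Relatives and genome neighbours did not simply follow the members. Of 21 tested, 15 rose and 2 fell (median 1.05), 1 of them (Ddc) tested only through CML 2wk. Ms4a3, the gene next to Ms4a2 in the RefSeq order, rose 9.85-fold (adjusted p = 2.8e-08), and the gene on its other side, Ms4a6d, also rose (log2 fold change 2.66 ± 0.26, adjusted p = 8.7e-07), with Ms4a2 between them at 0.43. Ccr1, a chemokine receptor gene of the cluster that holds Ccr3, rose 13.4-fold (adjusted p = 8.3e-07), whereas Ccr9 fell by 0.99 (adjusted p = 0.0046). Beside Il1rl1, Il18r1 fell and Il1rl2 was at 0.09 ± 0.16 (adjusted p = 0.65). Mpo, the peroxidase relative of Epx in neutrophil and monocyte precursors and the most abundant of the list, rose 1.59-fold (adjusted p = 0.020), a call lost without CML 2wk replicate 6 (1.43-fold, adjusted p = 0.053). The protein-coding gene on each side of a member was looked up after the members' values were seen.

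Markers of several cell types were counted as well, and their part in the results was not tested. Over all tested genes 30.6% were called higher and 29.0% lower, and several of the counts below are near these shares. The sort markers Kit and Ly6a (Sca-1) were present in every library, at no less than 322.5 and 27.2 CPM, and of 7 such markers 2 rose and 4 fell. Of 7 tested mast cell markers 6 rose and 1, Kit, fell, but Tpsab1, Mcpt4 and Mrgprb2 were under the filter's level in CTRL by their medians and were tested only through CML 2wk, which leaves 3 that rose of 4, and Mrgprb1 was not tested. Tpsb2, 1 of those 3, was at 0.0244, 0 and 0.169 CPM in CTRL replicates 1, 2 and 4, and also passed the filter only through CML 2wk. The mast cell marker sum was 770.9 to 868.1 CPM in CTRL, mostly Kit, and 658.3 to 2491 CPM in CML 2wk. Of 5 tested basophil markers 3 rose and 0 fell, and the sum of the list was 78.9 to 130.2 CPM in CTRL and 239.5 to 1179 in CML 2wk. That sum was mostly Cpa3, which is also on the mast cell list. The basophil protease gene Prss34 was not called, at 5.05 to 15.6 CPM in CTRL and 0.443 to 9.97 CPM in CML 2wk. In CTRL the tryptase gene Tpsb2, a defining mast cell marker, ranged from 0 to 3.80 CPM, while Mcpt8, a defining basophil protease, was at 9.73 to 17.1 CPM. Of 4 tested eosinophil markers 1 rose and 1, Ear6, fell, with sums of 19.9 to 29.5 and 20.1 to 47.0 CPM. Ear6 was under the filter's level in CML 2wk by its median, and of the other 3 markers 1 rose and 0 fell. Stromal and endothelial markers gave 3 higher and 0 lower of 8, monocyte and macrophage markers 4 and 0 of 9, and T and NK cell markers 2 and 1 of 5. By their medians, Col1a1, Col3a1, Cxcl12, Cdh5, Cd3e and Cd3g were under the filter's level in CML 2wk. Without them, stromal and endothelial markers gave 1 higher and 0 lower of 4, and T and NK cell markers 2 and 1 of 3. The stromal gene Fn1 was 2001 and 187.4 CPM in CML 2wk replicates 2 and 4. In the other CML 2wk libraries it was 1.35 to 2.26 CPM, below the 8.25 to 45.1 CPM of CTRL. Col1a1 and Col1a2 had the same pattern, whereas Pdgfrb and Pecam1 did not. Neutrophil markers gave 1 higher and 4 lower of 9, erythroid markers 1 and 6 of 7, megakaryocyte markers 0 and 6 of 6, B cell markers 0 and 2 of 6, and stem cell markers 0 and 6 of 8. Hba-a1 (erythroid) and Ppbp (megakaryocyte) were under the filter's level in CML 2wk by their medians. They were tested only through CTRL, and could count only as lower. Without them the erythroid counts were 1 and 5 of 6, and the megakaryocyte counts 0 and 5 of 5. The neutrophil sum was 2567 CPM in CTRL replicate 4, against 122.3 to 532.7 CPM in the other CTRL libraries and 105.5 to 462.6 CPM in CML 2wk. The share of counts from mitochondrial genes was 0.816% to 1.29% in CTRL and 2.26% to 2.97% in CML 2wk, with no overlap.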

How the data were processed

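Processed count files of 12 libraries were used. The deposited values are raw counts per Ensembl gene, made by the authors from paired-end reads of Kapa RNA HyperPrep libraries. The submitters' processing notes name fastp 0.23.2, STAR 2.7.10a, featureCounts 2.0.1, DESeq2 1.36.0 and mm39; the study's methods name other tools and a human build for bulk RNA-seq, so the exact chain is not settled. Strand setting, annotation and treatment of reads with several matches are not given in the sources used here, and the human transgene is not counted. At most 2.79% of a member's 50-base runs (Cd200r3) occur in another gene's GENCODE M21 transcripts, and 0 other genes overlap a member's exons.

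Groups and replicate numbers came from the sample titles. The main test was edgeR 4.0.16 (R 4.3.3) with filterByExpr, TMM factors and a quasi-likelihood F-test of CML 2wk (n = 6) against CTRL (n = 6), and it was tested on simulated data. Levels per length used merged exon lengths of GENCODE M21. DESeq2 1.42.0, other scalings, no filter, a replicate block and left-out libraries were alternatives. No 2 libraries of a group agreed within sampling noise (lowest chi-square per degree of freedom 4.07). Intervals and floors of 3 counts cover counting error only. Promoters came from RefSeq (GRCm38.p6), and 9 of 10 members matched. The members and lists were chosen with earlier results of these data known. Besides all members, the genes named from each list were, among those called with a mean of at least 1 CPM in a group, up to 2 with the largest rise, up to 2 with the largest fall, and the 1 with the highest mean; for the most abundant member of each role, the 3 most correlated genes were named. Exceptions are stated where they occur. Of the genes this rule picks, 1 is not reported here.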

Additional observations from a re-analysis of the deposited data

Results flagged for a closer look

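In 90 groups of 6 values (the members, Fcer1g and the named genes of the lists, in each group), 17 had a library far from the other 5. Chance would give about 5% or 4.5 if these groups were independent. They are not, because the genes vary together and many were picked for large changes, so the 17 cannot be weighed against the 4.5. CML 2wk replicate 2 was the far library in 12 of the 17. Among the members it was the highest for Fcer1a (181.0 CPM, next 55.6), Ms4a2 (59.6, next 25.5), Il1rl1 (254.4, next 122.5), Cd200r3 (55.1, next 24.4) and Hdc (222.9, next 67.8). Among the other genes it was the highest for Tph1 (113.2 CPM, next 32.9), Tpsab1 (36.7, next 9.17), C3ar1 (19.1, next 5.54), Il13ra1 (15.7, next 6.34), Bhlhe40 (66.1, next 18.5) and Lat2 (59.8, next 51.1), and the lowest for Milr1 (38.8, next 63.5).

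In CTRL, replicate 6 was the highest for the mast cell genes Tpsab1 (0.226 CPM, next 0.0442) and Mrgprb2 (0.527, next 0.149), levels of a few counts. Replicate 5 was the highest for C3ar1 (0.928 CPM, next 0.475), replicate 4 the highest for Ccr1 (5.64, next 2.86), and replicate 2 the lowest for Milr1 (20.6, next 24.8).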

How the results depend on the processing

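Fcer1a, Il1rl1, Cd200r3, Hdc and Prg3 kept their direction and stayed past the threshold under all 23 alternatives, with log2 fold changes of 3.78 to 4.77, 2.52 to 3.43, 3.79 to 4.74, 0.83 to 1.79 and -1.63 to -0.96. The members called higher numbered 4 to 6 and those called lower 1 to 4 over the alternatives. With 1 library left out, 4 to 5 were higher and 2 to 3 lower. The lower members fell from 3 to 1 at an adjusted p of 0.01 and to 1 without replicate 6 of both groups, where Prg2 (-1.34, adjusted p = 0.087) and Epx (-1.76, adjusted p = 0.051) missed the threshold. Ms4a2 reversed to -0.0087 without CML 2wk replicates 2 and 4 and passed at 0.79 without replicate 6 of both groups. Il5ra missed the threshold in 9 of 23 alternatives (adjusted p up to 0.094, without the filter), and Prg2 in 4 of 23 (adjusted p up to 0.12, in DESeq2). Why these changed was not tested. Leaving out CML 2wk replicates 2 and 6 together was chosen after seeing the data. The lower mean CPM of Ccr3 was -0.774 on library totals.

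Replicate numbers did not pair the samples: correlations of same-numbered deviations were -0.13 to 0.07. With a replicate block, 4 members were higher and 3 lower, and Il5ra missed the threshold (0.66, adjusted p = 0.066). Over all genes the block gave 4786 higher and 5189 lower. Of 12 libraries, 1 correlated best with its own number. Low counts limit Ccr3, Prg3, Il5ra and CTRL levels of Cd200r3 most.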
